A study of Mus musculus with 4 samples.

Results

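The data concern 10 genes of megakaryocyte and platelet priming in LSK cells, a sorted bone marrow population with Sca1 and Kit but no lineage markers, which holds hematopoietic stem cells and early multipotent progenitors. They were chosen by name: Itgb3 and Itga2b, which encode the platelet integrin chains; Vwf, which encodes von Willebrand factor; the platelet glycoprotein genes Gp1bb, Gp9 and Gp5; and Pf4, Plek, Cd9 and Rab27b. This choice was made with earlier results of these data known. All 10 were found among the 24421 genes of the table, and all 10 passed the filter on low counts that left 13296 genes for testing. Messenger RNA had been sequenced from LSK cells of mice aged to between 13 and 15 months, with 2 libraries from p53R248W/+ animals, in which 1 of the p53 alleles encodes a missense mutant of this tumour suppressor, and 2 libraries from WT animals. The labels do not say how the allele was introduced, whether animals were pooled, or whether replicates are different animals. The p-values thus describe only the spread among these libraries, which may be technical.

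Megakaryocytes are the large marrow cells that shed platelets. They are reached through committed progenitors, and also more directly from stem cells that already carry platelet transcripts, a state called platelet priming or platelet bias that is known to grow more common in the stem cells of old mice. The proteins encoded by the genes act at different steps: integrin alpha IIb beta 3 binds fibrinogen when a platelet is activated, the glycoprotein Ib-IX-V complex catches platelets on von Willebrand factor, and granules release platelet factor 4 and other cargo. In bulk RNA, fewer cells of a type and less RNA per cell cannot be told apart.

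The libraries held 12111126 to 14820759 counted reads. On the first principal component of the log2 levels, with 43.2% of the variance, WT replicate 1 stood apart from the other 3 libraries, most of all from p53R248W/+ replicate 1. The sort genes were present: Kit was at 1182 and 1105 CPM (the count scaled to a common library size, with TMM factors) in p53R248W/+ libraries and at 911 and 998 CPM in WT libraries, and Ly6a, a Sca1 gene, at 81.1 and 70.8 against 40.2 and 82.9 CPM. The 10 genes together made up 1245 and 1074 CPM in p53R248W/+ libraries and 1311 and 1405 CPM in WT libraries.

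No gene of the 10 differed between the genotypes at an adjusted p of 0.05, in a comparison that called 0% of all genes tested. The pair of integrin genes had the smallest unadjusted p of the 10, but Pf4 shared their adjusted p of 0.824 (edgeR quasi-likelihood test). Itgb3 and Itga2b had both p53R248W/+ values below both WT values, and were 1.57-fold and 2.42-fold lower in the fit. Pf4 was also lower in both p53R248W/+ libraries, with WT libraries that lay far apart. Vwf, Rab27b and the glycoprotein genes overlapped between the genotypes, and Plek and Gp5 had fitted values above 0. By the fitted log2 fold change, 8 of the 10 were below 0 and 2 above, with a median of -0.11, against a median of -8.81e-05 over all genes tested.

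At an unadjusted p under 0.05 in the edgeR quasi-likelihood test, 3 of the 10 genes were called, Itgb3, Itga2b and Pf4, all lower. The same rule called 5.87% of all genes tested: 2.86% were called lower and 3.01% higher. Values of the genotypes stood fully apart for 4 of the 10 genes, the same 3 and Cd9, all lower in p53R248W/+. Over all genes tested 33.6% did not overlap, 16.6% lower and 16.9% higher. The 40.0% of the 10 genes is near the background for both directions together and above that for the lower direction. The genes were chosen with earlier results of these data known, so no conclusion is drawn from these shares.

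**Figure D1:**
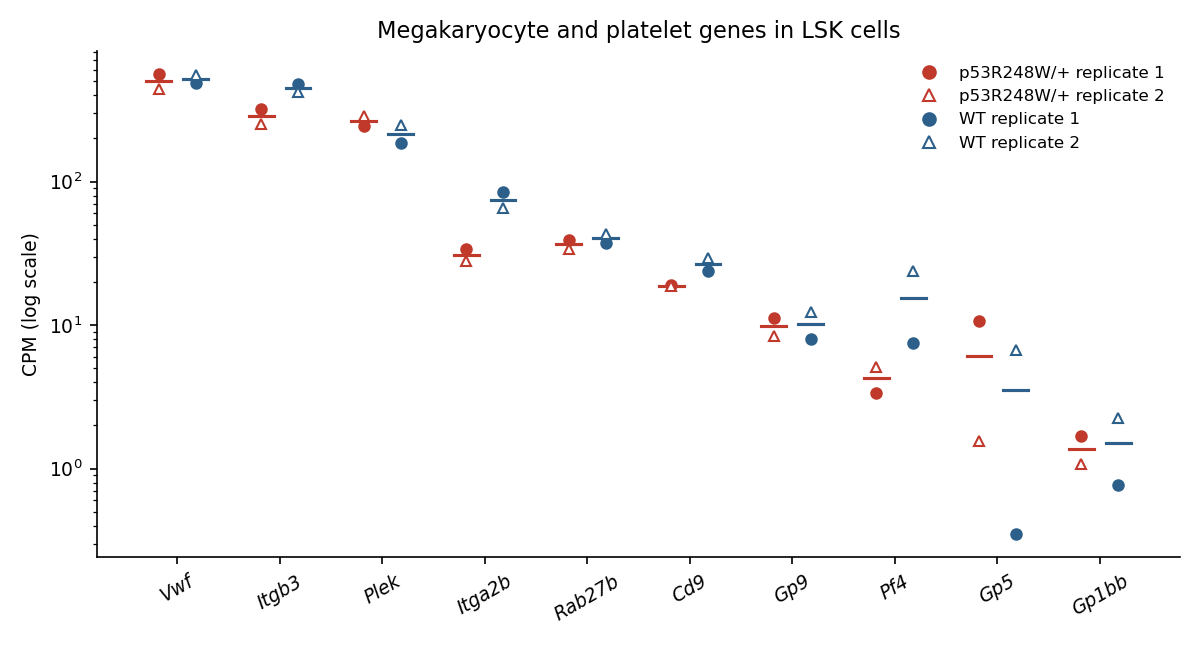
Level of each of the 10 genes in each library, in CPM on a log axis, with p53R248W/+ in red left of WT in blue; circles are replicate 1, triangles replicate 2 and bars the mean of 2 libraries. The levels span from 564 CPM for Vwf down to 0.349 CPM for Gp5, and the red points lie below the blue ones for Itgb3, Itga2b, Cd9 and Pf4.

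Itgb3 encodes integrin beta 3, the chain that joins integrin alpha IIb on platelets and integrin alpha V on other cells (mm10 chromosome 11, 104608000 to 104670471, plus strand, 15 exon blocks). It was counted at 319.5 and 253 CPM in p53R248W/+ libraries and at 480.5 and 423 CPM in WT libraries. Each p53R248W/+ library was below each WT library, and the 4 log2 ratios between single libraries ran from -0.93 to -0.40. The fit gave a log2 fold change of -0.65 ± 0.17 (SE; 2 libraries of each genotype), with a 95% interval from -1.02 to -0.29. Its adjusted p was 0.824 in the edgeR quasi-likelihood test, and by unadjusted p it ranked 14 of 13296 genes. With each library left out in turn the value ran from -0.84 to -0.50, and it was -0.56 without WT replicate 1.

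Itga2b encodes integrin alpha IIb, the CD41 antigen, an early mark of megakaryocyte commitment that is also present on a part of the stem cells (chromosome 11, 102453297 to 102469883, minus strand, 30 exon blocks). It was at 33.7 and 27.8 CPM in p53R248W/+ libraries against 84.5 and 65.1 CPM in WT libraries. The genotypes did not overlap here either, and the lower WT library was still well above the higher p53R248W/+ library. The log2 fold change was -1.27 ± 0.34 (SE), with a 95% interval from -1.98 to -0.56 and an adjusted p of 0.824 in the edgeR quasi-likelihood test. It ranked 17 of 13296 genes by unadjusted p, and ran from -1.44 to -1.07 with single libraries left out. It was -1.07 without WT replicate 1.

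The protein products of these genes pair one to one in the platelet integrin, but the transcripts were not at equal levels. Per kilobase of exon, Itga2b reached 0.177 and 0.185 of the Itgb3 level in p53R248W/+ libraries and 0.296 and 0.259 of it in WT libraries. The ratio was thus lower in both p53R248W/+ libraries, and Itgb3 exceeded Itga2b in all 4 libraries. An exact permutation test of 2 libraries against 2 cannot reach the 0.05 threshold, and the ratio was not tested in another way. Itgav, the other alpha chain partner of integrin beta 3, was at 91.2 and 97.5 CPM in p53R248W/+ libraries and at 64.2 and 85.9 CPM in WT libraries. Its log2 fold change was 0.33 ± 0.27 (SE; adjusted p = 0.887, edgeR quasi-likelihood test). Per kilobase, Itgav was at 1.32 and 1.71 times the Itga2b level in p53R248W/+ libraries and at 0.370 and 0.643 times that level in WT libraries. Itgav was thus above Itga2b in both p53R248W/+ libraries and below it in both WT libraries.

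**Figure D2:**
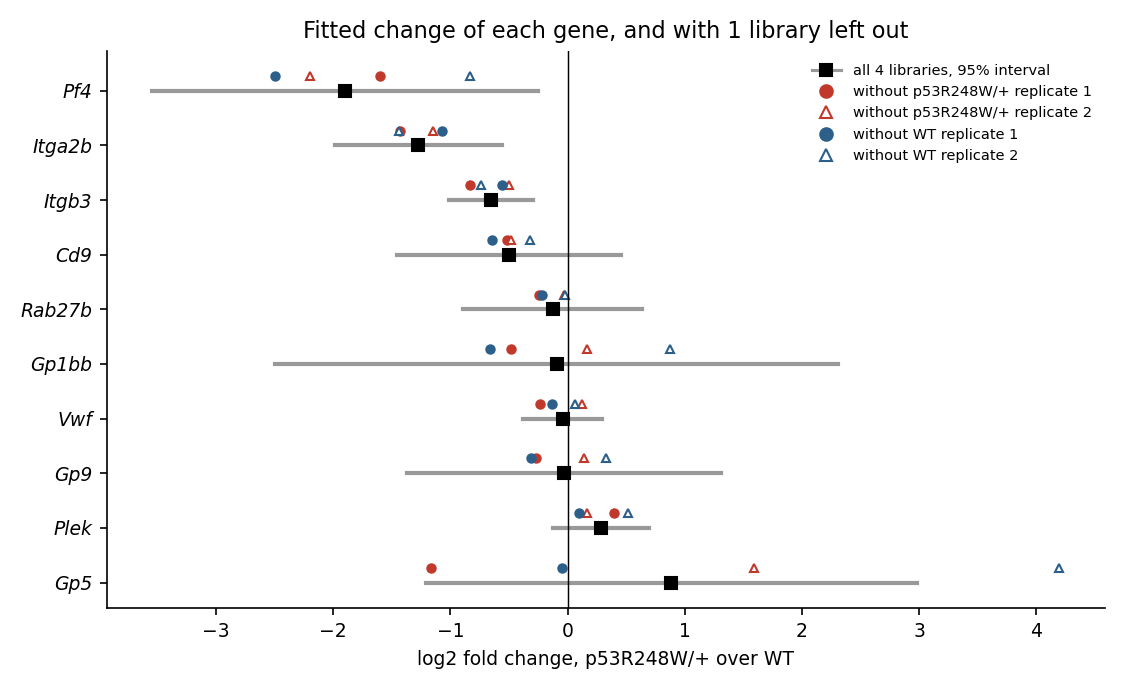
Fitted log2 fold change of p53R248W/+ over WT for each gene (black squares) with its 95% interval (grey bars), and the value with 1 library left out (coloured symbols above each bar). The intervals of Pf4, Itga2b and Itgb3 lie below 0, and single libraries move Gp5 between -1.17 and 4.20 but Itgb3 only between -0.84 and -0.50.

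Pf4 encodes platelet factor 4, an alpha granule chemokine that in mice is also known as a signal from megakaryocytes that holds stem cells quiescent (chromosome 5, 90772435 to 90773383, plus strand, 3 exon blocks). It was at 3.37 and 5.12 CPM in p53R248W/+ libraries, from 50 and 62 counts, and at 7.46 and 23.6 CPM in WT libraries, from 107 and 337 counts. The WT libraries differed 3.17-fold between themselves, more than the lower of them differed from the higher p53R248W/+ library. The log2 fold change was -1.90 ± 0.78 (SE), with a 95% interval from -3.55 to -0.25 and an adjusted p of 0.824 in the edgeR quasi-likelihood test. It was -0.83 without WT replicate 2 and -2.50 without WT replicate 1. The unadjusted p stayed under 0.05 without WT replicate 1 alone, and was 0.386 without WT replicate 2. It was 0.161 when p53R248W/+ replicate 1 was left out, and 0.0723 when the other p53R248W/+ library was (edgeR quasi-likelihood test). Ppbp, another platelet chemokine gene, 2374 bases from Pf4 on the same strand, did not share this order: it was at 7.08 and 3.80 CPM in p53R248W/+ libraries and at 2.09 and 6.52 CPM in WT libraries.

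Promoters were read for the genes with an entry in the RefSeq table of build GRCm38.p6, the release of mm10 coordinates, and 7 of the 10 matched: Itga2b, Pf4, Gp1bb, Gp9, Gp5, Plek and Cd9. The windows are the 250 bases before the start site. Itga2b and Pf4 are shown because they are the genes with an entry whose values were lowest in p53R248W/+ relative to WT. Gp5 is shown because it alone held a match to AGATAA, the only form of the GATA motif that was searched. Capitals mark 2 motifs searched on both strands with overlaps allowed, AGATAA, bound by GATA factors, and GGAAG, a core bound by ETS factors such as Fli1. The Itga2b window is chr11:102469884-102470133 on the minus strand, that of Pf4 is chr5:90772185-90772434 on the plus strand and that of Gp5 is chr16:30310782-30311031 on the minus strand.
Itga2b: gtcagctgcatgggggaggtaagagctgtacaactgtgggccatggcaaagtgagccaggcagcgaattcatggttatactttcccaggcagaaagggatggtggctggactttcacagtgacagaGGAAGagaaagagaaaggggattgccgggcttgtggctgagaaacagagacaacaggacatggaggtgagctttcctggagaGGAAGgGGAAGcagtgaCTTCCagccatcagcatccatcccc
Pf4: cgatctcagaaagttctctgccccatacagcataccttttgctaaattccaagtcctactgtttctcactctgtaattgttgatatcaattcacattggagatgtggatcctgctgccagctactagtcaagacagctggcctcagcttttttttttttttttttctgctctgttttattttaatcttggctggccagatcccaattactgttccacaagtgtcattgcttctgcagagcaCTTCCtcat
Gp5: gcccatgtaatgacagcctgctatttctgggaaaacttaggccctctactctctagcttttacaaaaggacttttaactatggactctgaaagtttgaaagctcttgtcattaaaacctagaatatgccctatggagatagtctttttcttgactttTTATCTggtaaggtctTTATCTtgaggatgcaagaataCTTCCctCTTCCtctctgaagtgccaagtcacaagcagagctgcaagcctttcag

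The Itga2b window held 4 matches to GGAAG, that of Pf4 held 1, and that of Gp5 held 2 beside its 2 matches to AGATAA. The ETS core was present in 6 of the 7 windows, all but that of Plek, and in 64.1% of 32817 windows of the same length before start sites in the table. The form AGATAA was present in 1 of the 7 and in 9.99% of all windows, and other forms of the GATA motif were not searched. The p53 half-site, a motif of 10 letters, was present in 0 of the 7 windows and in 7.12% of all windows. A match is only a run of letters, and no match says only that these letters are not in this window.

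Vwf encodes von Willebrand factor, the large adhesive protein that is made by megakaryocytes and endothelial cells and marks platelet-biased stem cells (chromosome 6, 125552948 to 125686679, plus strand, 52 exon blocks). It was the most abundant of the 10 genes by counts, at 564 and 439.9 CPM in p53R248W/+ libraries and at 483 and 553 CPM in WT libraries. The genotypes overlapped fully, with both WT values between the p53R248W/+ values. The log2 fold change was -0.04 ± 0.16 (SE; adjusted p = 0.983, edgeR quasi-likelihood test), and its 95% interval from -0.38 to 0.30 leaves room for modest differences either way. Its direction turned with the library left out, from -0.24 without p53R248W/+ replicate 1 to 0.12 without p53R248W/+ replicate 2.

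Since Vwf is also an endothelial gene, endothelial markers are given beside it. Of 12 endothelial marker genes 9 were tested, 3 below 0 and 6 above, and the summed level of the 12 was 354 and 249 CPM in p53R248W/+ libraries and 286 and 251 CPM in WT libraries. The library with the higher sum within the p53R248W/+ genotype also had the higher Vwf, while the order was opposite in WT. Cdh5, the endothelial cadherin gene, was at 1.82 CPM in p53R248W/+ replicate 1 and at 0 in the other 3 libraries, and Sox17 was at 0 in all 4. Some other genes of the list, named after their values were seen, were highest in WT replicate 1, which lay at an end of the first principal component. Cldn5 was at 4.05 and 1.82 CPM in p53R248W/+ libraries and at 23.9 and 1.19 CPM in WT libraries. Stab2 was at 1.69 and 0.826 CPM in p53R248W/+ libraries and at 6.28 and 1.05 CPM in WT libraries, and Plvap and Ptprb, at 1.53 and 1.26 CPM in WT replicate 1, were under 1 CPM in each other library. Kdr and Egfl7 were instead lowest in WT replicate 1. Kdr was at 20.4 and 25.3 CPM in p53R248W/+ libraries and at 8.16 and 14.9 CPM in WT libraries. Egfl7 was at 12.95 and 21.4 against 10.9 and 12.1 CPM. These were the only 2 of the 9 tested whose genotypes did not overlap, beside 33.6% of all genes tested. The part of endothelial cells in the Vwf values was not tested. Most of the sum came from Tie1, Tek and Robo4, which stem cells are known to express too.

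The glycoprotein genes encode subunits of the platelet receptor for von Willebrand factor. Gp9, the glycoprotein IX gene, was at 11.2 and 8.42 CPM in p53R248W/+ libraries and at 7.95 and 12.3 CPM in WT libraries. The p53R248W/+ values lay between the WT values, and the log2 fold change was -0.03 ± 0.64 (SE), with a 95% interval from -1.37 to 1.31. Gp1bb, the glycoprotein Ib beta gene, had 25 and 13 counts in p53R248W/+ libraries and 11 and 32 counts in WT libraries, the lowest mean level of the 10 genes. Its log2 fold change was -0.09 ± 1.15 (SE), with a 95% interval from -2.49 to 2.31. At this depth and with this spread between replicates, neither a large rise nor a large drop can be told from no difference. Of the 2085 exon bases of Gp1bb, 593 are shared on the same strand with Sept5, which had 0 to 5 counts per library, and the rule for reads in shared bases is not stated by the labels.

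Gp5, the glycoprotein V gene, was the most variable of the 10 within a genotype. It had 158 and 19 counts in p53R248W/+ libraries, or 10.7 and 1.57 CPM, and 5 and 96 counts in WT libraries, or 0.349 and 6.73 CPM. The replicates differed 6.79-fold in p53R248W/+ and 19.3-fold in WT, where the median gene tested differed 1.35-fold within each genotype. The counting intervals of the replicates did not overlap: in WT the exact Poisson 95% interval was 0.113 to 0.814 CPM for replicate 1 and 5.45 to 8.22 CPM for replicate 2, for counting error only. The fitted log2 fold change of 0.89 ± 1.00 (SE; adjusted p = 0.925, edgeR quasi-likelihood test) turned to -1.17 without p53R248W/+ replicate 1. It was 4.20 without WT replicate 2.

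Gp1ba, which encodes the chain of the same receptor that touches von Willebrand factor, was at 25.5 and 9.42 CPM in p53R248W/+ libraries and at 18.7 and 27.4 CPM in WT libraries, a log2 fold change of -0.34 ± 0.52 (SE). Its direction turned with the library left out, from -1.29 without p53R248W/+ replicate 1 to 0.15 without p53R248W/+ replicate 2. Gp1bb, Gp9, Gp5 and Gp1ba were each higher in replicate 1 than in replicate 2 of p53R248W/+ and lower in replicate 1 than in replicate 2 of WT. Vwf, Rab27b and Cd9 had this order too, which makes 6 of the 10 genes, beside 3318 of the 13296 genes tested. Summed over Gp1bb, Gp9 and Gp5, the level was 23.5 and 11.1 CPM in p53R248W/+ libraries and 9.07 and 21.3 CPM in WT libraries. The subunits were at unequal levels, and per kilobase of exon Gp9 exceeded Gp1bb by 17.1 and 20.2 times in p53R248W/+ libraries and by 26.6 and 14.1 times in WT libraries.

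Plek encodes pleckstrin, a major substrate of protein kinase C in platelets that is made in other blood cells as well (chromosome 11, 16971206 to 17008718, minus strand). It was at 243 and 285 CPM in p53R248W/+ libraries and at 185 and 247 CPM in WT libraries. The genotypes overlapped by a small margin, since WT replicate 2 lay just above p53R248W/+ replicate 1. The log2 fold change was 0.28 ± 0.20 (SE), with a 95% interval from -0.13 to 0.70 and an adjusted p of 0.852 in the edgeR quasi-likelihood test. It was 0.09 without WT replicate 1 and 0.52 without WT replicate 2.

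Cd9 encodes a tetraspanin that is abundant on platelets and is also used to enrich stem cells in mice (chromosome 6, 125460266 to 125494755, minus strand). It was at 19.0 and 18.6 CPM in p53R248W/+ libraries and at 23.6 and 29.5 CPM in WT libraries. The p53R248W/+ libraries were close together and below both WT libraries, yet the log2 fold change of -0.50 ± 0.46 (SE) had a 95% interval from -1.46 to 0.46 and an adjusted p of 0.896 in the edgeR quasi-likelihood test. Cd9 lies 58.2 kb from Vwf on the other strand, and the fitted values of these neighbours were -0.50 and -0.04. Rab27b, a small GTPase of dense granule secretion in mouse platelets, was at 39.4 and 34.1 CPM in p53R248W/+ libraries and at 37.6 and 43.0 CPM in WT libraries. The log2 fold change of Rab27b was -0.13 ± 0.36 (SE), with a 95% interval from -0.89 to 0.64.

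**Figure D3:**
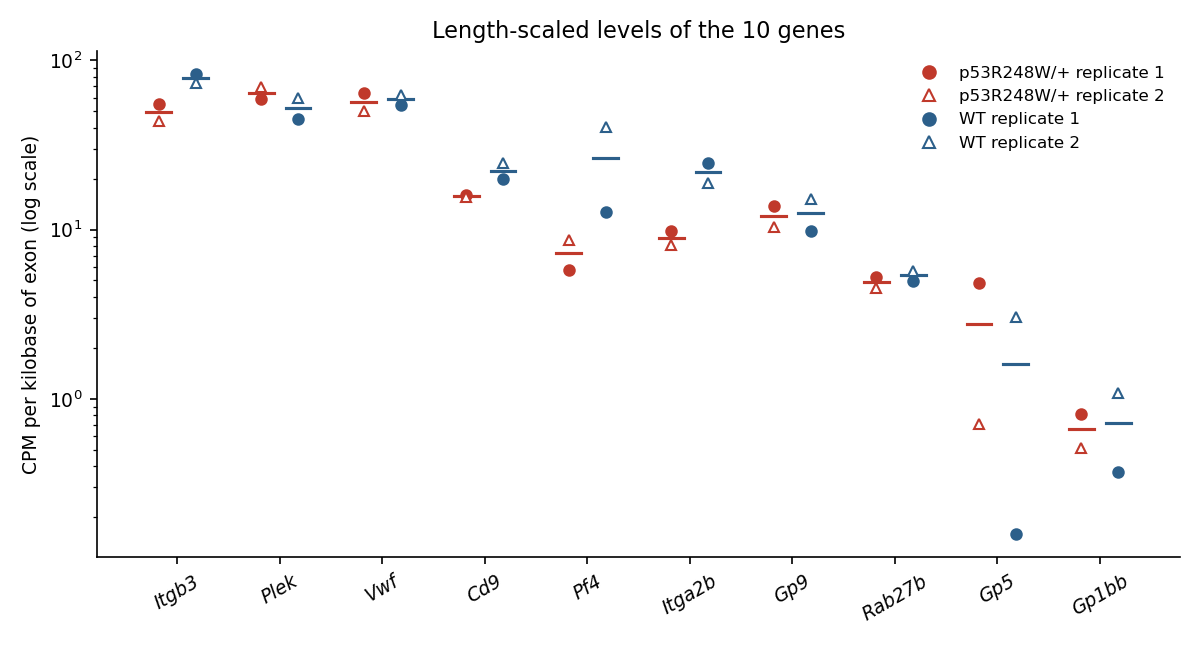
Length-scaled level of each gene in each library, in CPM per kilobase of exon on a log axis, with p53R248W/+ in red left of WT in blue and bars at the mean of 2 libraries. Itgb3, Plek and Vwf form an upper group at 43.7 to 83.1 CPM per kilobase, and Gp1bb is lowest by its mean, at 0.692 CPM per kilobase.

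Scaled by exon length, the order of the genes differed from the order by counts. The mean over the 4 libraries was 63.8 CPM per kilobase for Itgb3, 58.3 for Plek and 57.7 for Vwf, and the libraries of these 3 genes overlapped. Cd9 came next at 19.0, then Pf4 at 16.8, Itga2b at 15.4 and Gp9 at 12.3 CPM per kilobase, and each overlapped its neighbour in this order. Rab27b followed at 5.12, Gp5 at 2.20 and Gp1bb at 0.692 CPM per kilobase. Gp5 spanned from 0.159 to 4.85 CPM per kilobase over all libraries. By counts alone, Vwf, Itgb3 and Plek held 90.4% and 91.0% of the summed CPM of the 10 genes in p53R248W/+ libraries and 87.6% and 87.0% in WT libraries. The Itgb3 share of the sum was 25.7% and 23.5% in p53R248W/+ libraries and 36.6% and 30.1% in WT libraries.

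**Figure D4:**
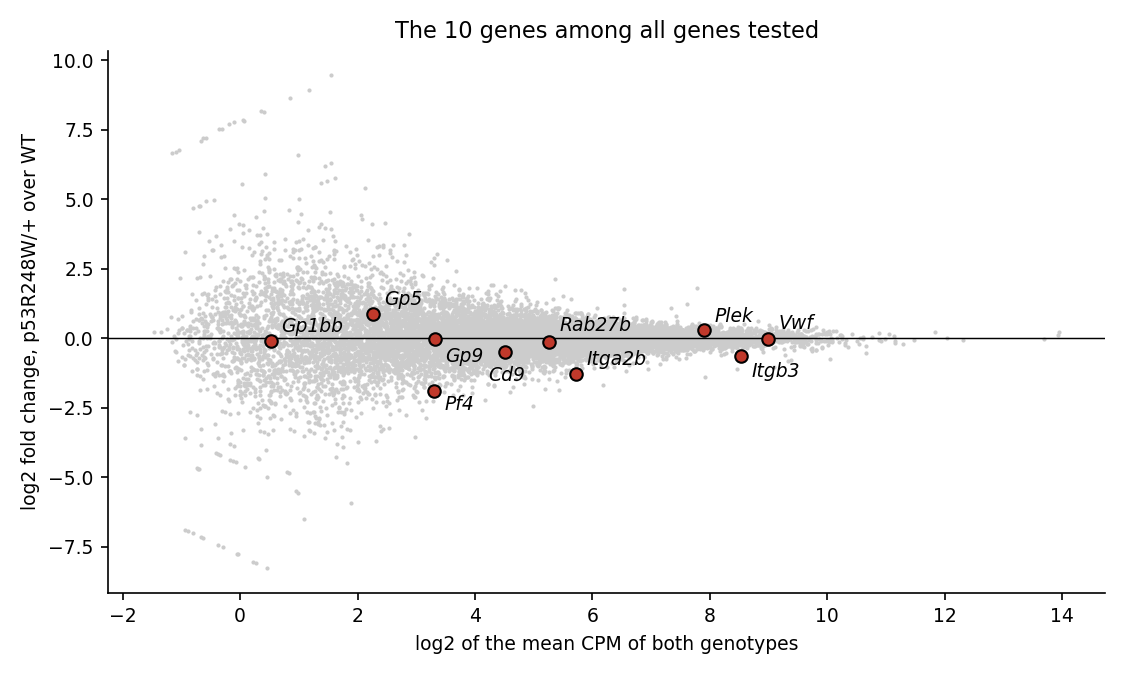
Fitted log2 fold change of p53R248W/+ over WT against the log2 of the mean CPM for all 13296 genes tested (grey), with the 10 genes in red. Itgb3 lies at the lower edge of the grey cloud for its level, Itga2b and Pf4 lie in its lower part, and Vwf, Gp9 and Gp1bb lie close to 0.

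Beyond the 10 genes, 6 lists of megakaryocyte and platelet genes held 109 names, of which 108 were matched and 102 tested. No gene on them passed an adjusted p of 0.05. Of the 102, 55 were below 0 and 47 above, with a median log2 fold change of -0.05. At an unadjusted p under 0.05 there were 5 lower and 7 higher genes, 11.8% of those tested, beside 5.87% of all genes. The share whose genotypes did not overlap was 45.1%, beside 33.6% of all genes. The lists too were chosen with earlier results of these data known, so no conclusion is drawn from these shares.

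Among 16 transcription factors of the lineage, 9 were below 0 and 7 above, with a median of -0.05. The abundant Etv6, Mef2c and Runx1 had log2 fold changes from -0.12 to 0.13. Fli1, an ETS factor needed for megakaryocyte maturation, was at 248.4 and 254 CPM in p53R248W/+ libraries and at 309 and 330 CPM in WT libraries. That is a log2 fold change of -0.35 ± 0.17 (SE; adjusted p = 0.824, edgeR quasi-likelihood test), and the genotypes did not overlap. Gata1 encodes the GATA factor that directs megakaryocyte and erythroid commitment. It had 12 and 2 counts in p53R248W/+ libraries, the latter under a floor of 3 counts, and 97 and 79 counts in WT libraries. In CPM these are 0.809 and 0.165 against 6.76 and 5.54, with a log2 fold change of -3.54 ± 1.21 (SE; adjusted p = 0.824, edgeR quasi-likelihood test) that ran from -5.14 to -2.91, with an unadjusted p of 0.0120 to 0.0814, as single libraries were left out.

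Among thrombopoietin signalling genes 8 were tested, 5 below 0 and 3 above, with a median of -0.06. The abundant Cbl, Jak2 and Stat5a, which encode signalling proteins of this pathway, had log2 fold changes between -0.16 and 0.12. Thpo, which encodes the ligand and is made mainly in the liver, was at 0 in all 4 libraries.

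Other platelet receptors and adhesion molecules had 15 of 24 tested genes below 0 and 9 above, with a median of -0.18. The abundant ones, Itga6, Selp, Itgb1 and F2r, had log2 fold changes from -0.39 to 0.04, and Selp, the P-selectin gene, was at -0.39 ± 0.25 (SE) with a range from -0.91 to -0.03 as libraries were left out. Platelet granule and secretion genes had 10 of 24 below 0 and 14 above, with a median of 0.16. The most abundant, Mmrn1, which encodes the granule protein multimerin, was at 786 and 576 CPM in p53R248W/+ libraries and at 473 and 708 CPM in WT libraries. Srgn, Nbeal2 and Snap23 had log2 fold changes of -0.10, 0.36 and 0.07.

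Integrin activation and platelet signalling genes had 8 of 20 below 0 and 12 above, with a median of 0.11. Tln1, the talin gene whose product binds the integrin beta tail, was at 559 and 573 CPM in p53R248W/+ libraries and at 617 and 612 CPM in WT libraries. Rap1b, a GTPase that switches platelet integrins on, was at 225 and 259.8 CPM in p53R248W/+ libraries and at 283 and 380.1 CPM in WT libraries, a log2 fold change of -0.45 ± 0.19 (SE; adjusted p = 0.824, edgeR quasi-likelihood test) that was -0.22 without WT replicate 2 (unadjusted p = 0.342). Pik3cg and Plcg2 were at 0.24 and -0.23 on the log2 scale. Platelet cytoskeleton genes had 8 of 10 tested genes below 0 and 2 above, with a median of -0.20, and the 4 most abundant, Myh9, Diap1, Flna and Zyx, lay between -0.10 and 0.09.

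**Figure D5:**
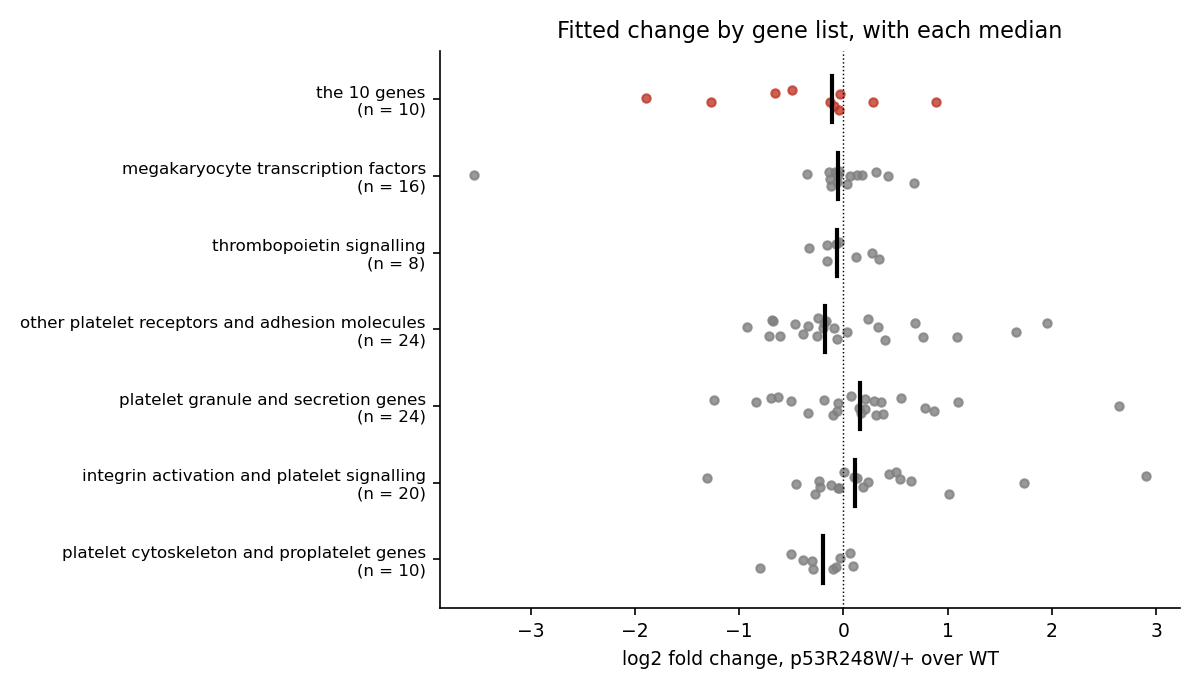
Fitted log2 fold change of p53R248W/+ over WT for the 10 genes (red) and for the tested genes of 6 further lists (grey), with the median of each as a black bar. The medians lie between -0.20 and 0.16, and the isolated point at the far left is Gata1, at -3.54, which had 2 counts in p53R248W/+ replicate 2.

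Further genes of the lists at an unadjusted p under 0.05 were named after their values were seen. Slc35d3, a gene of dense granule formation in mice, was at 16.4 and 17.8 CPM in p53R248W/+ libraries and at 0.976 and 4.49 CPM in WT libraries. Alox12, the platelet 12-lipoxygenase gene, was at 15.4 and 5.78 CPM in p53R248W/+ libraries and at 1.19 and 1.75 CPM in WT libraries. Pecam1, Syk, Tbxa2r and F2rl2 also lay above 0, at 0.76, 0.54, 1.95 and 1.09 on the log2 scale. Clu, Tgfb1 and Itga5 lay below 0, at -0.84, -0.70 and -0.61. Single libraries moved these values. With 1 left out in turn, Clu ran from -1.41 to -0.47, Tgfb1 from -1.07 to -0.36, Itga5 from -0.95 to -0.36 and Tbxa2r from 1.16 to 3.82. Slc35d3 ran from 1.92 to 4.12, Alox12 from 1.97 to 3.39 and F2rl2 from 0.74 to 1.55. Pecam1 ran from 0.55 to 1.02 and Syk from 0.45 to 0.65. Platelet genes thus stood on both sides of 0. Each of these had an adjusted p of 0.824 in the edgeR quasi-likelihood test.

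Genes of mature megakaryocytes and platelets, 10 in number, summed to 878 and 623 CPM in p53R248W/+ libraries and to 514 and 766 CPM in WT libraries, most of it Mmrn1. Of the 8 tested, 7 were above 0 and 1 below, with a median log2 fold change of 0.55, where 8 of the 10 priming genes were below 0. This split rested in part on single libraries. Of the priming genes, 5 were below 0 when replicate 2 of either genotype was left out, and 9 when replicate 1 of either was. Without p53R248W/+ replicate 1, Mmrn1, Ppbp, Clec1b and Gp1ba were at -0.04, -0.18, -0.27 and -1.29. Nrgn, Itga2, Alox12 and Treml1 stayed above 0, at 0.20, 0.12, 1.97 and 1.16. Without WT replicate 1, Mmrn1, Ppbp and Gp1ba were at -0.05, -0.22 and -0.60, and the other markers tested were above 0. Without WT replicate 2, Clec1b and Gp1ba were at -0.10 and -0.04. All of these marker genes are also on the lists above. The genotypes did not overlap for 3 of the 8, Alox12, Itga2 and Treml1, all higher in p53R248W/+ and named after their values were seen. Over all genes tested 33.6% did not overlap, and 16.9% were higher with no overlap. Treml1 had 79 and 37 counts in p53R248W/+ libraries and 36 and 3 counts in WT libraries. Gp6 was at 0 in all 4 libraries, and Tubb1, the platelet tubulin gene, at 0 and 4.63 CPM in p53R248W/+ libraries and at 0.139 and 0 CPM in WT libraries. Stem cell markers summed to 2386 and 2141 CPM in p53R248W/+ libraries and to 1755 and 2080 CPM in WT libraries, and multipotent progenitor markers to 1303 and 1725 CPM against 2131 and 931 CPM. Mpo, the most abundant progenitor marker, was at 628 and 544 CPM in p53R248W/+ libraries and at 1273 and 314 CPM in WT libraries. Of the 8 progenitor markers, 3 were below 0 and 5 above. Dntt and Il7r alone did not overlap, both higher in p53R248W/+ and named after their values were seen. Erythroid markers summed to 42.3 and 32.0 CPM in p53R248W/+ libraries and to 35.8 and 33.1 CPM in WT libraries. The stem cell sum was above both WT libraries in both p53R248W/+ libraries, but its genes stood on both sides of 0: 5 of 10 were below and 5 above, and among those whose genotypes did not overlap 3 were lower and 2 higher. The only one of the 10 at an unadjusted p under 0.05 in the edgeR quasi-likelihood test was lower. Of the sort genes, Kit alone did not overlap.

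B cell markers summed to 44.1 and 24.2 CPM in p53R248W/+ libraries and to 8.23 and 12.8 CPM in WT libraries. All 4 of the 7 that were tested were higher in p53R248W/+ with no overlap, with a median log2 fold change of 1.52, and Pax5 was at 0 in all libraries. Over all genes tested, 16.9% were higher with no overlap. T and NK cell markers summed to 82.5 and 67.7 CPM in p53R248W/+ libraries and to 69.6 and 82.6 CPM in WT libraries. Neutrophil and monocyte markers summed to 174 and 134 CPM in p53R248W/+ libraries and to 211 and 111 CPM in WT libraries. Mast cell and basophil markers summed to 381 and 363 CPM in p53R248W/+ libraries and to 377 and 407 CPM in WT libraries. Most of each sum was Gata2, which is also on the list of transcription factors. Gata2 was at 351 and 306 CPM in p53R248W/+ libraries and at 343 and 381 CPM in WT libraries. Of the 6 genes, all tested, 2 were below 0 and 4 above. The part of cell makeup in the values of the 10 genes was not tested.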

How the data were processed

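The table of raw counts per gene was deposited by the authors, with exon lengths in bases. Build mm10 and the tools STAR 2.7.10a, FastQC 0.11.5, Subread 2.0.3, featureCounts and edgeR 3.40.2 are named per the submitters' processing notes. Strand and multi-mapping settings are not given in the sources used here. Genotypes and replicate numbers came from sample titles, and columns were matched to them by name. Genes were filtered with filterByExpr (minimum count 10, minimum total 15), scaled by TMM and tested with edgeR 4.0.16 in R 4.3.3 (glmQLFit with robust=TRUE and legacy=FALSE, glmQLFTest, genotype as the only term, all 4 libraries), with Benjamini-Hochberg adjustment over 13296 genes. The method was tested on simulated data. Fold changes are log2 of p53R248W/+ over WT; the standard error is the log2 fold change over the root of F. Levels between genes are CPM per kilobase of exon. A floor of 3 counts is 0.202 to 0.248 CPM; intervals and floors cover counting error only. The members and gene lists were chosen with earlier results of these data known. Named are the 10 members, genes of each list past the adjusted threshold, else its 4 most abundant tested genes, and Gata1, Fli1, Ppbp, Gp1ba, Itgav and Selp; some genes the rule names are not reported here. Mpig6b and Ly6g were not matched by symbol and are not analysed here. The alternatives were other scalings, filters and tools (DESeq2 1.42.0, limma 3.58.1), a replicate block, each library left out and, added after seeing the data, the legacy quasi-likelihood method.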

Additional observations from a re-analysis of the deposited data

How the results depend on the processing

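In 14 alternatives, 10 other settings and 4 with a library left out, none of the 10 genes passed an adjusted p of 0.05. Over all genes, 0 passed in the edgeR quasi-likelihood test (780 at an unadjusted p under 0.05), 6 with DESeq2 (3 lower, 3 higher) and 4 with the likelihood ratio test (1 lower, 3 higher); with a library left out the count ran from 0 to 1, the 1 without p53R248W/+ replicate 2. Genes at an unadjusted p under 0.05 ran from 336 without p53R248W/+ replicate 1 to 1083 without WT replicate 2, and were 414 without WT replicate 1. Of the 10 genes, 2 to 3 were called at that level with a library left out, and 2 with limma-voom, which left out Pf4; without WT replicate 2, Gp5 was called (log2 fold change 4.20) and Pf4 was not. Their median log2 fold change was -0.31 under the stricter filter, which drops Gp1bb and Gp5, and ran from -0.50 without p53R248W/+ replicate 1 to 0.044 without p53R248W/+ replicate 2; it was -0.44 without WT replicate 1 and 0.02 without WT replicate 2. Itgb3, Itga2b, Pf4, Plek, Cd9 and Rab27b kept their sign in every alternative. Over the 10 other settings, the adjusted p of Itga2b ran from 0.0778 in the DESeq2 Wald test to 0.947 in the edgeR quasi-likelihood test without a filter. That of Itgb3 ran from 0.190 to 0.947 in the same 2 tests. Gp1bb turned to 0.065 with limma-voom. With a library left out, Vwf ran from -0.24 to 0.12, Gp1bb from -0.67 to 0.88, Gp9 from -0.31 to 0.33 and Gp5 from -1.17 to 4.20, so their directions rest on single libraries; the cause was not tested. The replicate numbers do not pair the libraries by the labels, and same-numbered deviations correlated at -0.0074; with a replicate block 0 genes passed the adjusted threshold, 3 of the 10 genes were called at an unadjusted p under 0.05 and their median was -0.10. With 5 to 158 counts per library, Gp1bb and Gp5 are limited by depth as well as by replicate spread.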
